A study of Chlamydomonas reinhardtii with 12 samples.

Results

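The genes described here are 8 transcripts of the unicellular green alga Chlamydomonas reinhardtii that encode routes by which electrons can leave or bypass the main photosynthetic and respiratory chains. They were chosen by locus, as the rows of the deposited table for AOX1 (Cre09.g395950), AOX2 (Cre03.g169550), PTOX1 (Cre07.g350750), PTOX2 (Cre03.g172500), FLVA (Cre12.g531900), FLVB (Cre16.g691800), PGRL1 (Cre07.g340200) and PGR5 (Cre05.g242400). Each locus had 1 row, so 8 of the 17301 gene models in the table are members, and all 8 passed the filter on low values that left 14311 models for testing. The rule used loci and no measured value, but it was set with earlier results of these data known.

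The alternative oxidases AOX1 and AOX2 sit in the mitochondrial inner membrane and pass electrons from ubiquinol to oxygen without pumping protons. The plastid terminal oxidases PTOX1 and PTOX2 do the same from plastoquinol in the thylakoid, PTOX2 being known as the main oxidase of chlororespiration in this alga and PTOX1 having been linked to carotenoid synthesis. The flavodiiron proteins FLVA and FLVB reduce oxygen at the acceptor side of photosystem I. PGRL1 and PGR5 take part in cyclic electron flow around photosystem I, which needs no oxygen, so the set holds oxygen-consuming outlets beside a route that returns electrons to the plastoquinone pool.

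Illumina RNA sequencing covered 12 samples, a single one for every combination of 4 strains and 3 stages. Wild-type CC-124 was studied beside the mutant crr1, crr1 rescued with CRR1 (crr1:CRR1) and crr1 rescued with the form called crr1dCys, which is known to lack the cysteine-rich end of CRR1, the copper response regulator. Stages were light-oxic culture in acetate medium and incubation in sealed, stirred bottles in the dark for 0.5 h or 6 h (dark-anoxic). Aliquots of a light-grown culture gave the stages, so light and oxygen were withdrawn together and their parts cannot be told apart. Nothing in the labels says whether CC-124 is the parent of crr1, and the level of CRR1 itself was not analysed here.

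The deposited values were read as RPKM, reads per kilobase of gene model scaled to the depth of the column, so levels of different genes can be set side by side, but a lower RPKM does not separate fewer transcripts from more of all others. Sequencing depth, worked out from low values, was 12000629 reads in the shallowest of the 20 columns and 18894048 in the deepest. AOX2 had 27 to 7929 reads per column, PTOX2 47 to 593 and FLVA 180 to 665, and the other 5 genes had at least 432 reads in every column. Repeat columns of a sample agreed across genes with r of 0.981 to 0.991 in 7 pairs, while the TS1 and TS4 columns of crr1:CRR1 at 6 h had r = 0.836. That TS4 column stands apart for several of the 8 genes, so the 6 h response of each gene against the light is also given without it.

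The first question is which outlets changed when the cells lost light and oxygen, over the 4 strains. A gene was called when its limma adjusted p was below 0.05 and its response, the difference of log2(RPKM + 1), was at least 1 in size. After 0.5 h AOX1 rose and PGRL1 and PGR5 fell, against 3.41% of all tested models called higher and 4.92% called lower (8.33% in either direction). After 6 h PTOX2 and PGR5 were called lower and none of the 8 was called higher, where 7.03% and 4.49% of all models were called (11.5% in either direction). Between 0.5 h and 6 h PTOX2 alone among the 8 was called lower and none was called higher, against 5.19% and 3.40% of all models (8.59% in either direction). The median response of the 8 genes was -0.22 at 0.5 h and -0.46 at 6 h, beside 0.02 and -0.03 over all tested models. Both comparisons with light-oxic culture use the same light-oxic samples. The summed level of the 8 genes was 550.2 ± 63.9 RPKM in light-oxic culture and 318 ± 19.1 RPKM after 0.5 h, then 354 ± 73.6 RPKM after 6 h (mean ± SD over strains, n = 4). PGR5 and PGRL1 had light-oxic means of 233.8 and 159.5 RPKM, and at most 73.98 and 81.24 RPKM at 0.5 h. Their joint fall exceeded that of the sum, so the other genes together did not fall. Among these, the mean of AOX1 went from 45.33 to 94.15 RPKM. The means of AOX2, PTOX1, FLVA and FLVB were lower at 0.5 h than in the light. At 6 h the highest sum, 462.8 RPKM, was that of CC-124, where AOX2 alone had 236.3 RPKM. The sums of the other strains at 6 h lay within the range at 0.5 h, 293.2 to 338.8 RPKM.

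**Figure D1:**
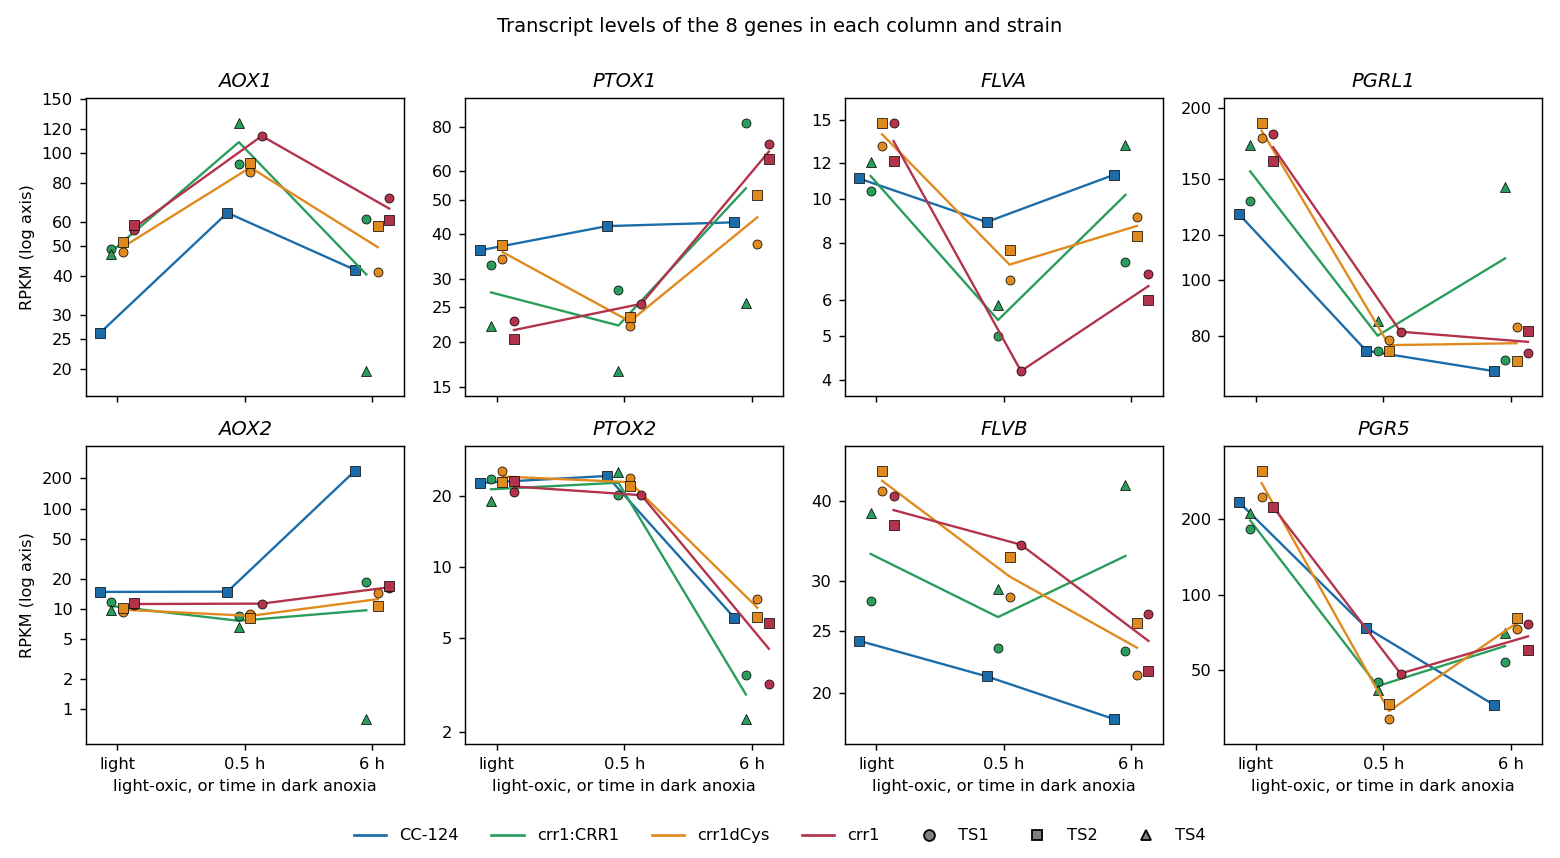
RPKM on a log axis in light-oxic culture and after 0.5 h and 6 h of dark anoxia, with a panel for each gene; points are deposited columns (shape gives the series TS1, TS2 or TS4), lines join the sample means of a strain (colour). AOX1 peaks at 0.5 h, PTOX2 drops between 0.5 h and 6 h, PGR5 drops by 0.5 h, and AOX2 reaches 236 RPKM in CC-124 at 6 h.

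AOX1 was higher after 0.5 h in every strain. In light-oxic culture it stood at 26.1 RPKM in CC-124, with 48.0 in crr1:CRR1, 49.7 in crr1dCys and 57.5 in crr1. After 0.5 h the values were 64.1, 109, 90.0 and 114 RPKM in the same order of strains. Every strain lay above every light-oxic value, and CC-124 was lowest at both stages. The response was 1.06 log2 units (SE 0.18, a 2.08-fold rise, limma adjusted p = 0.00123), higher in 4 of 4 strains. It lies close to the size threshold: with the TS1 columns alone it was 0.91, with the TS2 columns alone 0.99, and without CC-124 it was 0.99, so the call is lost in each case while the adjusted p is at most 0.0171.

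At 6 h AOX1 was back at 41.9 RPKM in CC-124, with 40.5 in crr1:CRR1, 49.6 in crr1dCys and 66.2 in crr1. These values overlap those of the light, with a response of 0.10 (SE 0.18, limma adjusted p = 0.685), or 0.30 (SE 0.12, limma adjusted p = 0.0519) without TS4 and -0.09 without CC-124. Relative to 0.5 h the level was lower in 4 of 4 strains, with a difference of -0.96 log2 units (SE 0.18, limma adjusted p = 0.00237), which misses the size threshold. It was called lower without CC-124, at -1.08 (limma adjusted p = 0.00297), and without crr1, at -1.02 (limma adjusted p = 0.0173). In crr1:CRR1 the 6 h value averages a TS1 column at 61.3 RPKM with a TS4 column at 19.7 RPKM. Without TS4 the difference from 0.5 h was -0.76 (limma adjusted p = 0.000494).

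AOX2 behaved differently, and CC-124 stood apart from the other strains. In light-oxic culture it had 14.8 RPKM in CC-124, with 10.7 in crr1:CRR1, 9.84 in crr1dCys and 11.2 in crr1. At 0.5 h these were 14.9, 7.63, 8.55 and 11.3 RPKM, overlapping the light values, with a response of -0.15 (SE 0.64, limma adjusted p = 0.875). At 6 h CC-124 reached 236 RPKM, a 16.0-fold higher level than in its light-oxic culture, while crr1:CRR1 had 9.72 RPKM, crr1dCys 12.5 RPKM and crr1 16.5 RPKM.

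The CC-124 level at 6 h was 14.4 times the next highest strain, and it rests on 7929 reads in 1 column with no repeat. Within the TS2 series, the only one that holds CC-124, crr1dCys stood at 10.8 RPKM and crr1 at 16.8 RPKM at 6 h, so the gap is as large within that series. The CC-124 response was 3.91 log2 units, a size reached in CC-124 by 33 of the 14311 tested models (0.231%). Its excess over the highest other strain was 3.39 log2 units, matched by 10 models (0.0699%).

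Over the 4 strains the AOX2 response at 6 h was 0.94 (SE 0.64, limma adjusted p = 0.26) and was not called. In crr1:CRR1, the TS1 value was 18.6 RPKM and the TS4 value 0.802 RPKM, the latter from 27 reads with an exact Poisson 95% interval of 0.529 to 1.17 RPKM that covers counting error only. Without TS4, the response was 1.37 (SE 0.52, limma adjusted p = 0.0459) and was called higher, with responses above 0 in all 4 strains. Without CC-124 but with TS4 kept it was -0.05 (limma adjusted p = 0.898). The TS1 columns alone, which hold neither CC-124 nor TS4, gave 0.57 (limma adjusted p = 0.00622), under the size threshold. Against 0.5 h the difference was 1.09 (SE 0.64, limma adjusted p = 0.205), and without TS4 it was called, at 1.52 (limma adjusted p = 0.0354). With the TS1 columns alone this difference was 0.71 (limma adjusted p = 0.00258), also under the size threshold.

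The plastid terminal oxidases parted at 6 h. PTOX2 was even across strains in the light, at 22.7 RPKM in CC-124, with 21.3 in crr1:CRR1, 24.2 in crr1dCys and 21.9 in crr1. After 0.5 h it was at 24.3, 22.8, 22.9 and 20.1 RPKM in that order, overlapping the light values, with a response of -0.0017 (SE 0.16, limma adjusted p = 0.994). At 6 h it was at 6.08, 2.88, 6.71 and 4.50 RPKM, far below every earlier value.

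The 6 h response of PTOX2 was -2.02 log2 units (SE 0.16, limma adjusted p = 2.9e-05), lower in 4 of 4 strains, and 0.77% of tested models had a lower one. Against 0.5 h it was also -2.02 (SE 0.16, limma adjusted p = 3.25e-05), so the fall came after the 0.5 h sample. Without the TS4 column the 6 h response was -1.96 (limma adjusted p = 4.02e-06). Its lowest column, TS4 of crr1:CRR1, holds 47 reads at 2.26 RPKM (exact Poisson 95% interval 1.66 to 3.01 RPKM).

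PTOX1 went from 36.0 RPKM in CC-124, with 27.5 in crr1:CRR1, 35.7 in crr1dCys and 21.6 in crr1 in the light to 43.2, 53.8, 44.6 and 68.1 RPKM at 6 h. All 4 strains lay above the highest light value at 6 h, by little in CC-124 and most in crr1. The response was 0.73 (SE 0.23, limma adjusted p = 0.027), or 0.93 (limma adjusted p = 0.0135) without TS4, which both miss the size threshold. With the TS1 columns alone it was called, at 1.01 (limma adjusted p = 0.00363). It weakened to 0.43 (limma adjusted p = 0.17) without crr1. Without crr1:CRR1 it was 0.72 (limma adjusted p = 0.0781), and with the TS2 columns alone 0.78 (limma adjusted p = 0.0889). At 0.5 h it was at 42.2 RPKM in CC-124 and between 22.2 and 25.6 RPKM in the other strains, with a response of -0.12 (SE 0.23, limma adjusted p = 0.714) that had mixed signs. The difference between 0.5 h and 6 h was 0.85 (SE 0.23, limma adjusted p = 0.017), and it was called without TS4 at 1.05 (limma adjusted p = 0.00948), the crr1:CRR1 columns being 81.9 RPKM (TS1) and 25.7 RPKM (TS4). It was also called without CC-124, at 1.12 (limma adjusted p = 0.00694), and with the TS1 columns alone, at 1.24 (limma adjusted p = 0.00166). This difference was 0.82 without crr1dCys (limma adjusted p = 0.0605) and 0.78 without crr1:CRR1 (limma adjusted p = 0.0755). Without crr1 it was 0.67 (limma adjusted p = 0.06), and with the TS2 columns alone 0.78 (limma adjusted p = 0.19). In CC-124 itself it was 0.03.

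FLVA and FLVB are known to work together as a complex, and FLVA was the lower of the pair in every sample. In the light FLVA stood at 11.1 RPKM in CC-124, with 11.3 in crr1:CRR1, 13.9 in crr1dCys and 13.5 in crr1. After 0.5 h it had 8.91, 5.42, 7.18 and 4.18 RPKM in that order, below every light value. The response was -0.89 (SE 0.18, limma adjusted p = 0.00354), lower in 4 of 4 strains but short of the size threshold. It was called without CC-124, at -1.09 (limma adjusted p = 0.00201), and with the TS1 columns alone, at -1.14 (limma adjusted p = 0.000265), while the TS2 columns alone gave -0.66 (limma adjusted p = 0.0956). It was weakest in CC-124, at -0.29, and strongest in crr1, at -1.47. At 6 h FLVA had 11.3, 10.2, 8.74 and 6.44 RPKM, overlapping the light values, with a response of -0.43 (SE 0.18, limma adjusted p = 0.075). Without TS4 that response was -0.53 (limma adjusted p = 0.0193), still under the size threshold.

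FLVB had 24.2 RPKM in CC-124, with 33.0 in crr1:CRR1, 43.0 in crr1dCys and 38.7 in crr1 in the light. At 0.5 h it had 21.3, 26.3, 30.5 and 34.1 RPKM, and at 6 h 18.2, 32.8, 23.6 and 24.2 RPKM. CC-124 was lowest at each stage, and within TS2 its light level of 24.2 RPKM stood below 44.5 RPKM in crr1dCys and 36.6 RPKM in crr1. The responses of FLVB were -0.29 at 0.5 h (SE 0.15, limma adjusted p = 0.149) and -0.49 at 6 h (SE 0.15, limma adjusted p = 0.0206), both below 1 in size. At 6 h the crr1:CRR1 columns were 23.3 RPKM (TS1) and 42.3 RPKM (TS4), and the strain's response of -0.05 became -0.47 without TS4. Over the 4 strains the 6 h response was then -0.59 (limma adjusted p = 0.000979). With TS4 kept, it was -0.37 without crr1dCys (limma adjusted p = 0.127) and -0.43 without crr1 (limma adjusted p = 0.106). Quantile normalization gave -0.32 (limma adjusted p = 0.0839), and leaving out the strain block gave -0.49 (limma adjusted p = 0.116).

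The genes of cyclic electron flow were the most abundant of the set in the light and fell early. PGR5 stood at 235 RPKM in CC-124, with 198 in crr1:CRR1, 279 in crr1dCys and 224 in crr1. After 0.5 h it was at 74.0, 43.2, 34.4 and 48.5 RPKM, with no overlap between the stages. The response was -2.24 log2 units (SE 0.27, limma adjusted p = 0.000222), lower in 4 of 4 strains, and 0.31% of tested models had a lower one.

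At 6 h PGR5 remained low, at 36.4 RPKM in CC-124, with 62.4 in crr1:CRR1, 77.1 in crr1dCys and 68.2 in crr1. The response against the light was -1.96 (SE 0.27, limma adjusted p = 0.000382), or -2.01 without TS4. From 0.5 h to 6 h the strains went different ways, with -1.0023 in CC-124 and 0.47 to 1.14 in the other 3. Their mean of 0.28 (SE 0.27) had a limma adjusted p of 0.446, and without CC-124 it was 0.71 (limma adjusted p = 0.0185), still under the size threshold.

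PGRL1 had 130 RPKM in CC-124, with 155 in crr1:CRR1, 182 in crr1dCys and 171 in crr1 in the light. At 0.5 h the strains were close together at 75.3, 79.97, 77.0 and 81.2 RPKM, all below the light values. The response of -1.0037 (SE 0.13, limma adjusted p = 0.000327) just passed the size threshold and was lower in 4 of 4 strains. It missed that threshold in several settings, at -0.93 without crr1dCys, -0.99 without crr1 and -0.92 under quantile normalization. At 6 h PGRL1 had 69.3, 109, 77.6 and 78.0 RPKM, with a response of -0.96 (SE 0.13, limma adjusted p = 0.000351). The crr1:CRR1 columns were 72.6 RPKM (TS1) and 146 RPKM (TS4), and without TS4 the 6 h response was -1.08 (limma adjusted p = 1.9e-05), which is called. It was also called without crr1:CRR1 and with the TS1 or the TS2 columns alone, at -1.08 each.

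**Figure D2:**
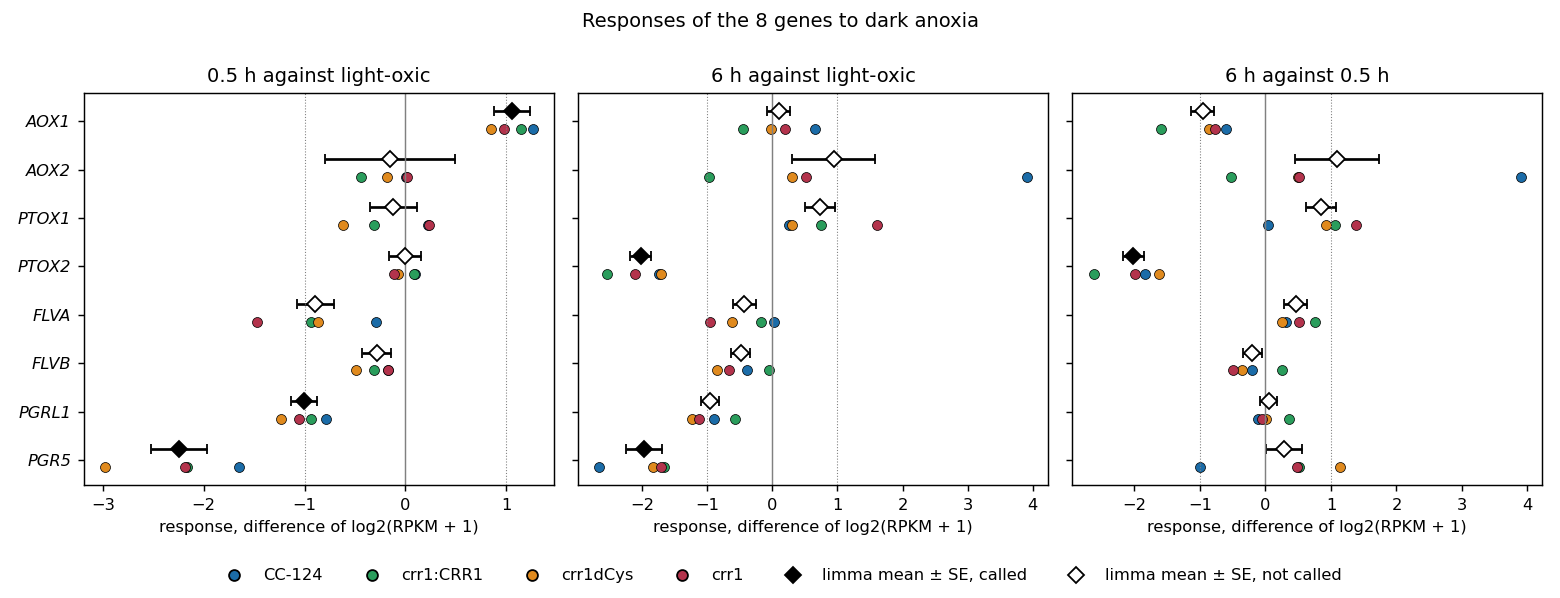
Responses as differences of log2(RPKM + 1) for the 3 comparisons of stages; circles are the 4 strains, diamonds the limma mean with its SE, filled where the gene was called, and dotted lines mark 1 log2 unit. PTOX2 and PGR5 lie near -2 at 6 h, AOX1 near 1 at 0.5 h only, and the AOX2 circle of CC-124 lies at 3.91 at 6 h.

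The ratio of partners within a pair is given per strain and stage, since RPKM is per length. AOX1 exceeded AOX2 by 4.49 to 5.12 times in the light and by 10.1 to 14.3 times at 0.5 h in the crr1 strains (crr1, crr1:CRR1 and crr1dCys). In CC-124 the ratio was 1.77, then 4.31, and at 6 h it had turned to 0.177. PTOX1 and PTOX2 were at similar levels in the light, with ratios of 0.985 to 1.59, and at 6 h PTOX1 exceeded PTOX2 by 6.65 to 18.7 times. FLVA was at 0.324 to 0.460 of FLVB in the light and at 0.122 to 0.419 at 0.5 h. PGRL1 was at 0.556 to 0.782 of PGR5 in the light, but at 1.02 to 2.24 times PGR5 after 0.5 h.

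The responses of partners were compared strain by strain, 12 comparisons in all. PTOX1 minus PTOX2 at 6 h was 2.75 ± 0.88 log2 units (SD, n = 4, exact sign-flip p = 0.125, adjusted p = 0.188). PGRL1 minus PGR5 at 0.5 h was 1.24 ± 0.37 (SD, n = 4, exact sign-flip p = 0.125, adjusted p = 0.188), and AOX1 minus AOX2 at 0.5 h was 1.21 ± 0.28 (SD, n = 4, exact sign-flip p = 0.125, adjusted p = 0.188). Each had the same sign in 4 of 4 strains. So did others of the 12, such as FLVA minus FLVB at 0.5 h, at -0.61 ± 0.51 (SD, n = 4). Signs were mixed in some, such as AOX1 minus AOX2 at 6 h against the light, which ran from -3.25 to 0.52. With 4 strains the 2-sided test cannot give less than 0.125, so none could pass 0.05.

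**Figure D3:**
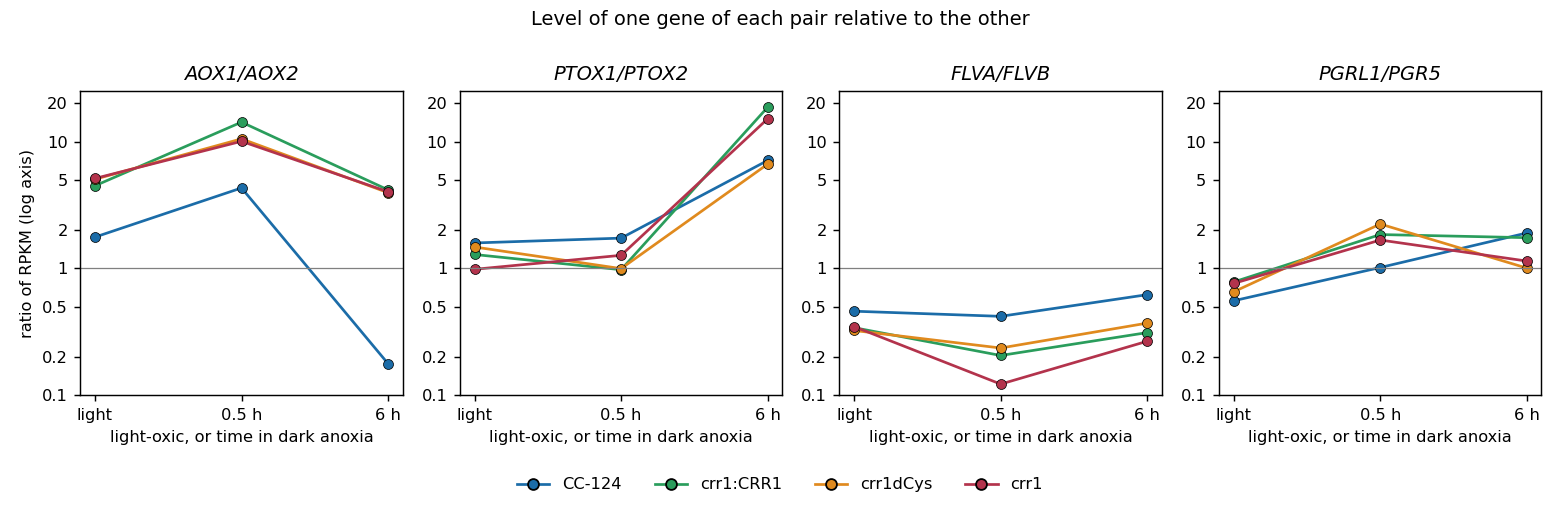
RPKM of the first gene of each pair over that of the second, on a log axis, for each strain (colour) by stage; the grey line marks equal levels. PTOX1/PTOX2 climbs to between 6.65 and 18.7 at 6 h, and AOX1/AOX2 falls to 0.177 in CC-124.

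By level, the order in the light was PGR5, PGRL1, AOX1, FLVB, PTOX1, PTOX2, FLVA and AOX2. PGR5 and PGRL1 did not overlap each other or the rest, and PTOX2 lay above FLVA in every strain without overlap. AOX1, FLVB, PTOX1 and PTOX2 overlapped with their neighbours in that order, and so did FLVA and AOX2. At 0.5 h AOX1 headed the order at 94.2 ± 22.5 RPKM, above PGRL1 in 3 of 4 strains. At 6 h PTOX2 was last at 5.04 ± 1.72 RPKM, below FLVA in every strain though the ranges overlap (SD, n = 4). It had moved from the 83.4th percentile of all models in the light to the 51st.

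The strains also address whether CRR1 takes part, by setting the response of crr1 or crr1dCys against the mean of CC-124 and crr1:CRR1, which carry full-length CRR1. None of the 8 genes was called in any of the 4 interaction tests with limma, and none had an unadjusted p under 0.05. The table as a whole also gave 0 calls (0% of 14311 models) in these tests, with between 0.475% and 6.12% of models at an unadjusted p under 0.05. Without TS4, 2 models were called for crr1 at 6 h, neither of them among the 8. The fit leaves 2 residual degrees of freedom, and the full-length pair includes CC-124, which differs from the other strains for AOX2.

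By size, the largest differences of crr1 from the full-length strains were in PTOX1, FLVA and AOX2. The 6 h response of PTOX1 was 1.61 in crr1 and 0.50 in the full-length strains, a difference of 1.11 (SE 0.50, limma adjusted p = 1), or 0.70 (SE 0.72) without TS4. FLVA differed by -0.86 (SE 0.38) at 0.5 h and by -0.88 (SE 0.38) at 6 h (limma adjusted p = 1 at both times). Without TS4 the FLVA difference at 6 h was -0.68 (SE 0.37). For AOX2 at 6 h the difference was -0.95 (SE 2.09), or -1.81 (SE 1.21) without TS4. The PTOX2 fall at 6 h was -2.10 in crr1 and -2.14 in the full-length strains, a difference of 0.04 (SE 0.46). For crr1dCys, the largest difference was -1.16 (SE 2.09, limma adjusted p = 0.884) for AOX2 at 6 h. The PGR5 response of crr1dCys at 0.5 h was -2.98 against -1.91, a difference of -1.07 (SE 0.67, limma adjusted p = 1). Without TS4 the AOX2 difference of crr1dCys at 6 h was -2.02 (SE 1.21). Over these tests with TS4 kept, the SE of a difference was 2.09 for AOX2 and between 0.36 and 0.67 for the other 7 genes.

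**Figure D4:**
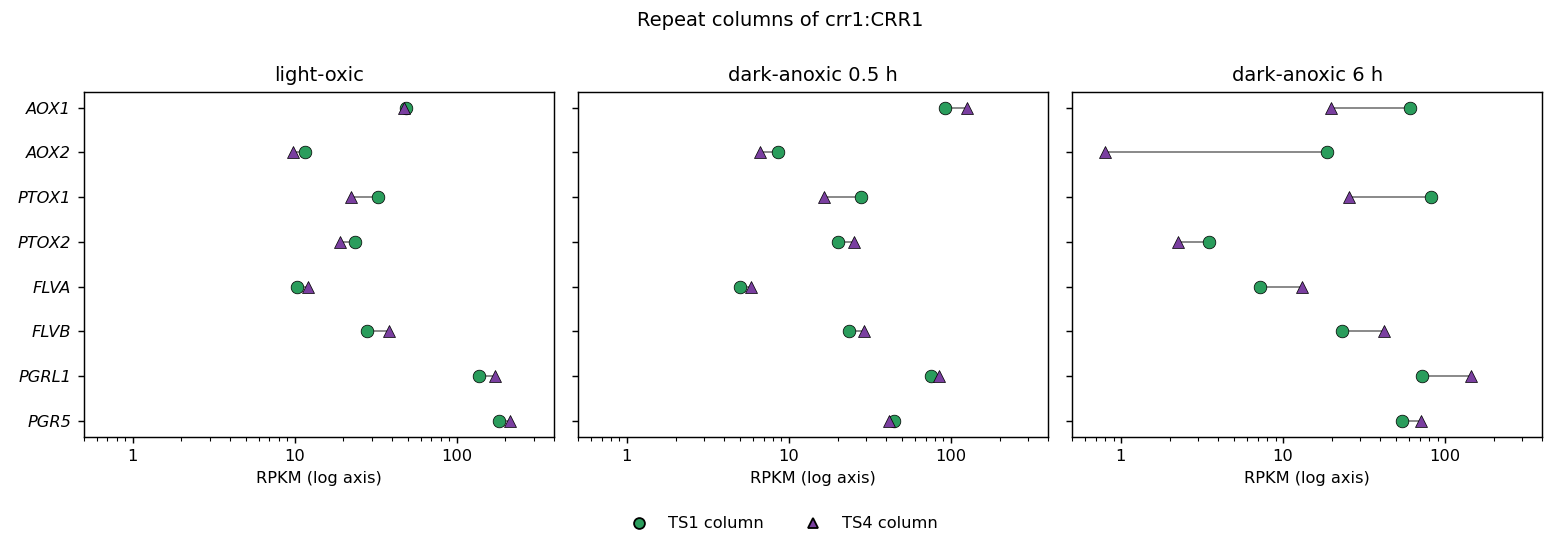
TS1 (circles) and TS4 (triangles) columns of crr1:CRR1 at each stage, RPKM on a log axis, with a line joining the columns of a gene. At 6 h AOX1, AOX2 and PTOX1 are lower in TS4, and FLVA, FLVB and PGRL1 higher, while at the other stages the columns lie closer together.

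The repeat columns of crr1:CRR1 at 6 h differed, as TS4 minus TS1 of log2(RPKM + 1), by -3.45 for AOX2, -1.64 for PTOX1 and -1.59 for AOX1. The differences were 0.99 for PGRL1, 0.83 for FLVB and 0.78 for FLVA. In each of these 6 genes that is more than the largest difference in the other 7 repeat pairs, which was 0.26 to 0.72 log2 units. For PTOX2 the value was -0.46, against 0.70 in the other pairs. For PGR5 it was 0.38, slightly more than the 0.34 in the other pairs. At 6 h PTOX2 had 3.495 (TS1) and 2.262 RPKM (TS4), against 23.66 and 19.05 RPKM in the light. PGR5 had 54.14 and 70.7 RPKM, against 182.9 and 212.8 RPKM in the light. The falls of PTOX2 and PGR5 at 6 h were thus present in both columns.

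The models most like each gene were found by Pearson's r of log2(RPKM + 1) over the 12 samples, as a description; samples share strains and stages. For PTOX2 they were Cre19.g755050.t1.1 (r = 0.989) and Cre07.g345500.t1.1 (r = 0.988), and for PGRL1 Cre08.g360950.t1.2 (r = 0.981) and Cre12.g514200.t1.1 (r = 0.973). AOX1 was closest to Cre14.g624300.t1.1 (r = 0.961), which had means of 36.8, 78.2 and 34.1 RPKM at the 3 stages. For PGR5 the closest was Cre17.g739550.t1.2 (r = 0.968), for FLVA Cre03.g204300.t1.2 (r = 0.969), for FLVB Cre16.g685050.t1.1 (r = 0.960) and for PTOX1 Cre06.g301450.t1.2 (r = 0.890). For AOX2 the 2 closest, both at r = 0.946, were above 0 in 1 sample only, so they carry no pattern over the other samples. The shortest lengths that give whole reads for them are 1 and 2 bases with 1 read each. Their true lengths and read numbers are not fixed by the values. Among models above 0 in all 12 samples the closest to AOX2 was Cre04.g228650.t1.1 (r = 0.933), a choice made after its value was seen. It went from 2.98 to 8.89 RPKM in CC-124 and reached at most 3.22 RPKM at 6 h in the other strains. Among the 8 genes themselves, PGRL1 and PGR5 had r = 0.918, FLVA and FLVB r = 0.163, AOX1 and AOX2 r = -0.23 and PTOX1 and PTOX2 r = -0.74.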

How the data were processed

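The authors deposited 1 table of normalised values for 17301 models in 20 columns, covering 12 samples; no column was left without a sample. Bowtie is named per the submitters' processing notes, without a version; no source used here gives the counting, strand setting, build or annotation, so reads shared by near-identical models are uncertain. The deposited values were taken as RPKM from the values themselves: 513 low models were each converted to a length in bases, and 100% of lengths came out whole (tolerance 0.1 base) at the depth taken, while 22 trial depths gave 19.97% on average. That depth was chosen because lengths of part of these models came out whole at it, so the share is not an independent check. The low models were also kept only where their values lay on whole-number steps. Read numbers are the smallest that put all 20 values of a gene on whole reads.

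Columns were matched to samples by name: 24 was read as CC-124, Cy as crr1dCys, cC as crr1:CRR1 and r1 as crr1. CC-124 occurs in TS2 only. Repeat columns (8 samples) were averaged on the log2 scale and counted once; levels are arithmetic means. Values were analysed as log2(RPKM + 1), which understates changes of low genes, for the 14311 models whose mean reached 1 RPKM, with limma 3.58.1 in R 4.3.3, Benjamini-Hochberg adjusted over all models. Strain was a block (6 residual degrees of freedom), because samples of a strain deviate together from the stage means (r across genes 0.139 to 0.743). Strains are the replicates, so p-values measure the spread between strains, 3 of which are related, not between cultures. Scripts were tested on simulated data.

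The 8 genes and the lists were chosen with earlier results of these data known. The rule for named genes took all 8 and the models most like each by correlation. Lists of other electron transfer genes are not reported, because the table and the RefSeq table (Chlamydomonas_reinhardtii_v5.5, in which all 8 loci matched a locus tag) pair no symbols with identifiers. Alternatives were pseudocounts of 0.1 and 5, no filter, median of ratios and quantile scaling, no block, arithmetic averaging, single series, no TS4 column at 6 h and leaving out each strain.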

Additional observations from a re-analysis of the deposited data

Results flagged for a closer look

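Of 48 sets of 4 strain values (levels and responses of the 8 genes), 2 held a strain far from the other 3 by Dixon's criterion, which chance meets in about 1 of 20 such sets. AOX2 in CC-124 at 6 h stood at 236 RPKM, with the other strains at 9.72 to 16.5 RPKM. PTOX1 in CC-124 at 0.5 h stood at 42.2 RPKM, with the others at 22.2 to 25.6 RPKM. CC-124 has 1 column per stage and occurs in TS2 only, so strain and single column cannot be told apart for it.

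The 0.5 h response of PTOX2 was above 0 in CC-124 and crr1:CRR1 and below 0 in crr1 and crr1dCys. The means differed by 0.19 log2 units, a difference that was not tested as such and is smaller than the 0.33 log2 units (root mean square) between the repeat columns of PTOX2 in 7 pairs.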

How the results depend on the processing

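The PTOX2 fall at 6 h (-2.23 to -1.47) and the PGR5 falls at 0.5 h (-2.44 to -2.00) and 6 h (-2.15 to -1.67) were called in all settings run with the size threshold. Without the replicate block of strains, no call among the 8 genes changed (PTOX2 at 6 h -2.02, limma adjusted p = 6.43e-05). Other counts moved between settings. Several of the responses lie near 1 log2 unit, and in other cases the adjusted p crossed 0.05. For AOX2 at 6 h the limma adjusted p went from 0.26 to 0.0459 without TS4. At 0.5 h the 1 gene called higher was lost (0) with a pseudocount of 5, TS1 alone and TS2 alone, and the 2 called lower became 1 with a pseudocount of 5, median of ratios scaling and quantile normalization and 3 with TS1 alone and with no size threshold. At 6 h, 1 gene was called higher with TS1 alone, without TS4 and with no size threshold, and the 2 called lower became 3 with TS1 alone, TS2 alone and without TS4 and 4 with no size threshold. From 0.5 h to 6 h, 1 was higher with TS1 alone and with no size threshold, 2 without TS4, and 2 were lower with no size threshold. Leaving out each strain gave 0 to 1 higher and 1 to 3 lower at 0.5 h, 0 higher and 2 to 3 lower at 6 h, and 0 to 1 higher and 1 to 2 lower from 0.5 h to 6 h. Median of ratios and quantile scaling moved the median of all models by under 0.1 log2 units. Over the whole table, a pseudocount of 5 lowered the called models from 488 higher and 704 lower to 248 and 299 at 0.5 h, and from 643 and 1006 to 287 and 506 at 6 h.

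Signs turned only in values that were not called. At 0.5 h these were PTOX1 with TS2 alone (0.0002) and without crr1dCys (0.0478), and PTOX2 under median of ratios (0.0033), quantile (0.0539), TS2 alone (0.0081), without crr1dCys (0.0227) and without crr1 (0.0359). At 6 h they were AOX1 (-0.0915) and AOX2 (-0.0488) without CC-124. From 0.5 h to 6 h they were PGRL1 with TS1 alone (-0.0321), TS2 alone (-0.0612), without TS4 (-0.0757) and without crr1:CRR1 (-0.0559), and PGR5 without crr1dCys (-0.0065). Differences of crr1 turned for PGRL1 at 0.5 h under median of ratios (0.0036), and at 6 h for AOX1 with arithmetic averaging (-0.0089) and without TS4 (-0.31) and PTOX2 without TS4 (-0.0752). Differences of crr1dCys at 6 h turned for AOX1 under median of ratios (0.0318) and quantile (0.0686), and PTOX1 under quantile (0.0025). The cause was not tested. The lowest read numbers (27 for AOX2, 47 for PTOX2) limit the precision of those columns.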
